A study of Mus musculus with 10 samples.

Results

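The genes described here are 38 genes of the interferon response and of antigen presentation by MHC class I, taken by name from a list. They comprise 3 signalling and transcription factors, 14 antiviral effectors, 7 sensors and regulators, 7 interferon-inducible GTPases and 7 genes of MHC class I and peptide loading. They are 38 of the 45321 genes for which counts were summed. All 38 had enough counts to be tested, as did 14417 genes in total.

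RNA was sequenced from naive CD4 T cells, the helper lineage before its first antigen encounter, sorted as CD4+CD62L+CD69- from spleens of C57BL/6 mice. Every group was first held for 1 h with the solvent DMSO (vehicle) or with 12.5 µM Compound 10, which the series' design text describes as an inhibitor of the NFAT:AP-1 complex. Cells were then left unstimulated or given 10 nM PMA, which activates protein kinase C, with 1 µM ionomycin, a calcium ionophore, for 2 h. The groups were unstimulated vehicle cells (n = 3 libraries), unstimulated Compound 10 cells (n = 2), stimulated vehicle cells (n = 2) and stimulated Compound 10 cells (n = 3). Whether a group's libraries are from different animals or cultures is not stated in the labels, so p-values measure only how far these samples differ, which may be technical spread. PMA and ionomycin bypass the T cell receptor, and vehicle cells too carried DMSO.

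Type I interferons act through the receptor chains Ifnar1 and Ifnar2 on a complex that includes Stat2 and Irf9 and binds the interferon-stimulated response element (ISRE) in the promoters of antiviral genes. Interferon gamma acts through Ifngr1 and Ifngr2 and the kinases Jak1 and Jak2, and its target promoters carry the GAS element. In T cells many of these genes are expressed at a basal level without infection, and MHC class I is among the most abundant surface proteins of the naive cell.

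The libraries held 10694591 to 33486259 estimated counts. Levels are given as CPM, the share of a library's counts on a fixed common total, scaled by TMM, which corrects library totals for composition. The 10 T cell identity genes, among them the CD3 chains and Cd4, summed to 1898 to 2135 CPM in unstimulated vehicle, 2444 to 2475 in unstimulated Compound 10, 4463 to 4818 in stimulated vehicle and 3448 to 4071 in stimulated Compound 10 libraries. Between unstimulated and stimulated vehicle libraries, Trac had 260 to 262 against 1295 and 1392 CPM, and Lat 247 to 456.5 against 889 and 1078. Lck, Zap70, Cd5, Cd247 and Cd3e were also higher. Cd4 (154 to 225 against 187.5 CPM in each), Cd3d (107 to 148 against 119 and 133) and Cd3g (52.5 to 82.0 against 57.9 and 86.2) overlapped. The marker sums of other cells all lay below the T cell identity sums, and some of them differed between the groups. MHC class II genes (6 of 6 detected) summed to 40.9 to 85.2, 103 to 125, 153 to 253 and 249 to 385 CPM in the same order, and most of that was Cd74, at 39.2 to 366 CPM. The 9 B cell genes summed to 25 to 77.5 CPM, of which Ighm held 21 to 70.6. The 10 myeloid genes summed to 13.6 to 25.5, 8.43 to 9.74, 5.79 to 8.57 and 2.39 to 5.53 CPM, with Cd68 at 1.80 to 23.7 CPM, and S100a9 had no count in any library. Markers of plasmacytoid dendritic cells (5 genes without Bst2, Klk1 at 0) summed to 5.04 to 11.1 CPM, NK cell markers (5 genes, Ncr1 and Klra8 at 0) to at most 1.24, CD8 T cell markers (2 genes) to 2.41 to 10.6 and regulatory T cell markers (2 genes) to 7.25 to 15 CPM. Their part in the results below was not tested, and in bulk RNA fewer cells of a type and less RNA per cell cannot be told apart.

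Promoters of the listed genes were read from RefSeq (GRCm38.p6), which gave 34 windows for 29 of the 38 genes. In the 250 bases before the gene start, the ISRE pattern (GAAA, any 2 bases, GAAA, on either strand) was present in 13 of 34 windows (38.2%), against 978 of 32851 windows of all genes (2.98%). The GAS pattern (TTC, any 3 bases, GAA, which reads the same on both strands) was present in 6 windows (17.6%, against 7.02% of all). The core GGAAA that NFAT can bind was present in 23 windows (67.6%, against 55.6%), and it can overlap an ISRE match. The AP-1 pattern TGANTCA was present in 6 windows (17.6%, against 6.75%). The 6 stretches below, of 100 bases each, are those of genes that were both called with stimulation of vehicle cells and carry an ISRE match, and are shown because the match occurs in genes that rose and in genes that fell. They are written 5′ to 3′ on the strand of the gene, with the bases of ISRE matches in capitals. They lie at chr2:122147503-122147602 (B2m, plus strand), chr3:142559944-142560043 (Gbp3, plus), chr4:156200836-156200935 (Isg15, minus), chr12:26456518-26456617 (Rsad2, minus), chr11:58199456-58199555 (Igtp, plus) and chr10:128270248-128270347 (Stat2, plus).
B2m: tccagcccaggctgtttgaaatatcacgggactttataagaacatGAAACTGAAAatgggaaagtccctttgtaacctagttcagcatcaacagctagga
Gbp3: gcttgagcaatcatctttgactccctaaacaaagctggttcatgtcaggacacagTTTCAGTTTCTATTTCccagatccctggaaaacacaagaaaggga
Isg15: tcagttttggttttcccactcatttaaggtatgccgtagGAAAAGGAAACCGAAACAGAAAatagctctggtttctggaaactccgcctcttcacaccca
Rsad2: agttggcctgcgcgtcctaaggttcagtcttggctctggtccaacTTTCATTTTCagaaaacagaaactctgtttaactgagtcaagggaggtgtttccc
Igtp: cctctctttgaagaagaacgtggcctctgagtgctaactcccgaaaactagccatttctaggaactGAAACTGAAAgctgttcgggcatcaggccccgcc
Stat2: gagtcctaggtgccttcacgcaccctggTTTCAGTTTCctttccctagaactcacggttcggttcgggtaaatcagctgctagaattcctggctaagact

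In Isg15 the capitals are 3 overlapping matches and in Gbp3 they are 2. B2m, Gbp3, Isg15 and Rsad2 rose with stimulation of vehicle cells, and Igtp and Stat2 fell. Among the genes with a window, an ISRE match was found in 4 of 8 that rose, 2 of 5 that fell and 7 of 16 that were not called in that comparison. A match is a description of the letters and shows no binding.

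Levels were compared between genes in unstimulated vehicle cells as deposited TPM, which accounts for length. The MHC class I genes stood at the top. The heavy chain genes H2-K1 and H2-D1 had 12180 ± 2129 and 7307 ± 1118 TPM (SD, n = 3), and the light chain gene B2m had 6390 ± 966. The libraries of H2-D1 and B2m overlapped, while every H2-K1 library was above every H2-D1 library. Tapbp, the gene of tapasin, which bridges empty class I molecules to the peptide transporter, followed at 342 ± 82.0 TPM, and the GTPase gene Igtp at 187 ± 13.7 TPM. In all, 9 genes exceeded 100 TPM, 15 had between 10 and 100, 12 had between 1 and 10 and 2 were under 1, the antiviral genes Rsad2 (0.405 ± 0.103) and Mx1 (0.247 ± 0.0624). Only 6 of the 37 neighbouring pairs in this order had libraries that did not overlap. Of the 14 antiviral effectors, those above 10 TPM were Bst2, Zbp1 and Isg15.

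**Figure D1:**
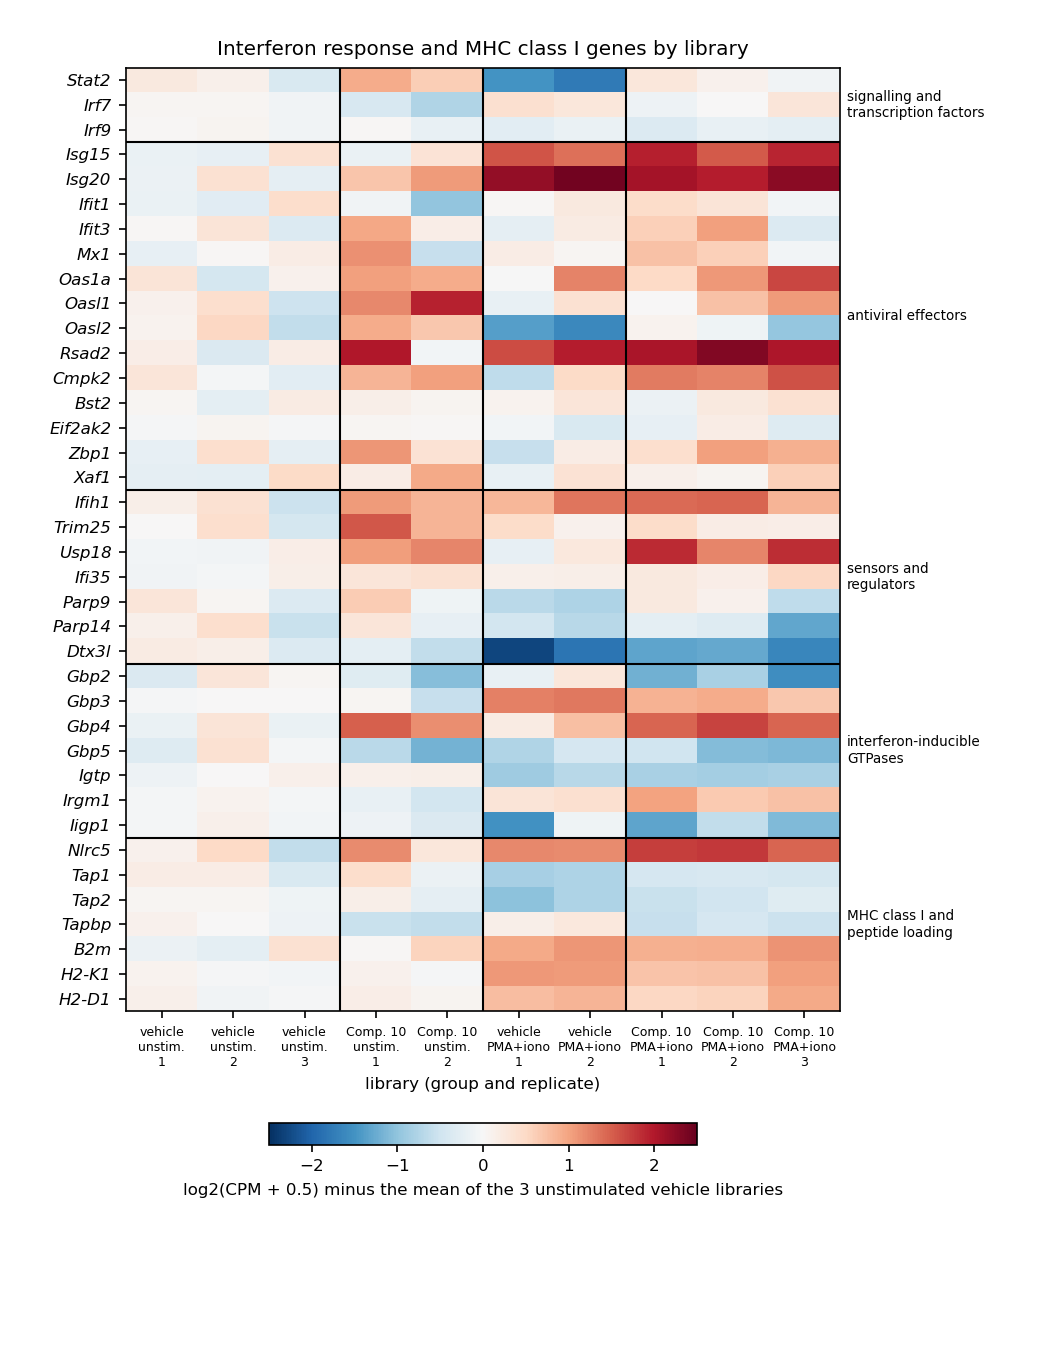
Colours give log2(CPM + 0.5) of each listed gene (rows, grouped by role) in each of the 10 libraries (columns), minus the mean of the 3 unstimulated vehicle libraries; red is higher and blue lower. Isg15, Isg20 and the class I genes B2m, H2-K1 and H2-D1 are red in all 5 stimulated libraries, Dtx3l and Igtp are blue there, and Stat2 is strongly blue only in the 2 stimulated vehicle libraries.

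The first comparison asked what PMA and ionomycin changed in vehicle cells. A gene was called where edgeR's quasi-likelihood test gave an adjusted p under 0.05 over the 14417 genes. Of the 38 genes, 9 rose (23.7%, against 19.5% of all genes tested) and 6 fell (15.8%, against 19.4%), with a median log2 fold change of 0.12 against -0.06 for all genes. Calls went both ways within 4 of the 5 roles. MHC class I and peptide loading had 4 higher and 2 lower of 7, antiviral effectors 3 and 1 of 14, sensors and regulators 1 and 1 of 7, GTPases 1 and 1 of 7, and transcription factors 0 and 1 of 3.

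Stat2, the transcription factor specific to type I and III interferon signalling (chromosome 10, 128270559 to 128292849, plus strand, mm10), fell with stimulation. It had 118, 109 and 76.3 CPM in the unstimulated vehicle libraries and 34.9 and 28.9 in the stimulated ones. The groups did not overlap, and the level was 3.17-fold lower (log2 fold change -1.67 ± 0.22 SE, adjusted p = 0.000144, edgeR). Irf9, the DNA-binding partner of Stat2, had 65.4 to 72.1 against 57.3 and 61.6 CPM, and Irf7, which amplifies interferon production, had 64.2 to 71.3 against 83.6 and 90.7 CPM. Neither of these passed the test in vehicle cells (-0.22 ± 0.15 and 0.34 ± 0.17).

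Among the antiviral effectors, Isg20, an exonuclease that degrades viral RNA, rose most. It had 1.53, 2.42 and 1.43 CPM in unstimulated and 9.91 and 11.5 CPM in stimulated vehicle libraries (5.98-fold, log2 fold change 2.58 ± 0.30, adjusted p = 5.17e-05, edgeR). Isg15, a ubiquitin-like protein that is attached to other proteins, had 5.92, 5.73 and 8.81 against 20.99 and 18.2 CPM (1.51 ± 0.26, adjusted p = 0.000739, edgeR). Both genes were higher in each stimulated library than in any unstimulated one. Rsad2, which encodes viperin, had 1.04, 0.559 and 1.06 against 3.73 and 4.85 CPM (2.26 ± 0.61, adjusted p = 0.0120, edgeR), from only 12 to 56 counts per library of these groups. Oasl2, an oligoadenylate synthetase-like protein, moved the other way, from 7.34, 10.1 and 4.30 to 2.32 and 1.90 CPM (-1.78 ± 0.45, adjusted p = 0.00854, edgeR). The groups of both genes were separate, but without stimulated vehicle replicate 2 adjusted p was 0.0827 for Rsad2 and 0.0774 for Oasl2. Scaled by library totals alone, Rsad2 was at 1.51 (0.0593).

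Of the sensors and regulators, Ifih1, the RNA sensor MDA5, had 10.1, 11.98 and 6.11 CPM in unstimulated and 16.5 and 23.8 CPM in stimulated vehicle libraries (1.11 ± 0.30, adjusted p = 0.0121, edgeR). Its adjusted p was 0.155 without stimulated vehicle replicate 2, and 0.405 by library totals alone, where its log2 fold change was 0.33. Dtx3l, a ubiquitin ligase that acts with Parp9, had 68.1, 65.8 and 46.3 against 11.7 and 16.4 CPM (4.24-fold lower, -2.08 ± 0.25, adjusted p = 6.72e-05, edgeR). This was the lowest log2 fold change of the 38 genes in vehicle cells. Dtx3l and Parp9 overlap by 682 bases on opposite strands and the library kit does not mark strand, so their reads there cannot be told apart. Parp9 is also overlapped over 5854 bases by the antisense gene Gm15564, which held 161941 counts over the 10 libraries against 5667 for Parp9. Parp9 itself had 25.4 to 39.8 against 18.8 and 19.96 CPM and did not pass (-0.76 ± 0.31, adjusted p = 0.0734, edgeR).

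Of the GTPases, which act in defence against intracellular microbes, Gbp3 rose from 13.6, 14.1 and 14.1 to 33.9 and 35.6 CPM (1.32 ± 0.20, adjusted p = 0.000368, edgeR). Igtp, also called Irgm3, fell from 181, 198 and 215 to 106 and 122 CPM (-0.80 ± 0.14, adjusted p = 0.000940, edgeR). Both had groups that did not overlap, and by library totals alone Gbp3 was at 0.54 (adjusted p = 0.0581). Igtp overlaps the annotated span of Irgm2 by 7974 bases on the same strand, so the split of counts between them is uncertain. Gbp2 (0.04 ± 0.30), Gbp4 (0.49 ± 0.21), Gbp5 (-0.74 ± 0.46), Irgm1 (0.37 ± 0.17) and Iigp1 (-0.67 ± 0.42) were not called.

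With TMM scaling, the genes of the MHC class I molecule itself were called higher and those of the peptide transporter lower. H2-K1 had 8317, 7684 and 7496 CPM in unstimulated and 16650 and 16270 in stimulated vehicle libraries (2.10-fold, log2 fold change 1.07 ± 0.14, adjusted p = 0.000108, edgeR). H2-D1 had 6613, 5692 and 5921 against 10300 and 10910 CPM (0.80 ± 0.15, adjusted p = 0.00157, edgeR). B2m had 2269, 2115 and 3279 against 4803 and 5360 CPM (0.99 ± 0.21, adjusted p = 0.00286, edgeR). In each of the 3 genes the stimulated libraries lay above all unstimulated ones. Nlrc5, the transactivator of class I genes, had 74.6, 99.2 and 45.5 against 161 and 159 CPM (1.13 ± 0.31, adjusted p = 0.0117, edgeR). Tap1 and Tap2 encode the subunits of the transporter that carries peptides into the endoplasmic reticulum. Tap1 had 249, 246 and 168 against 122 and 126 CPM (-0.83 ± 0.21, adjusted p = 0.00876, edgeR), and Tap2 had 210, 210 and 187 against 98.8 and 118 CPM (-0.90 ± 0.17, adjusted p = 0.00124, edgeR). Tapbp, at 388 to 452 against 468 and 503 CPM, was not called (0.20 ± 0.13). Without stimulated vehicle replicate 1 adjusted p was 0.0653 for Nlrc5 and 0.0728 for Tap1, and without replicate 2 it was 0.0602 and 0.0524. Scaled by library totals alone, which moved the median gene to -0.83, neither Nlrc5 (0.34) nor the 3 class I chains were called (log2 fold change 0.29 for H2-K1, 0.03 for H2-D1 and 0.22 for B2m) and Tapbp was called lower (-0.57). The MHC class II and T cell identity sums were higher in the same stimulated libraries, as given above. H2-K1 is 1 of 15 similar class I genes and held 48.7% of their counts. With those genes, H2-D1 among them, summed to 1, the change was 0.98.

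**Figure D2:**
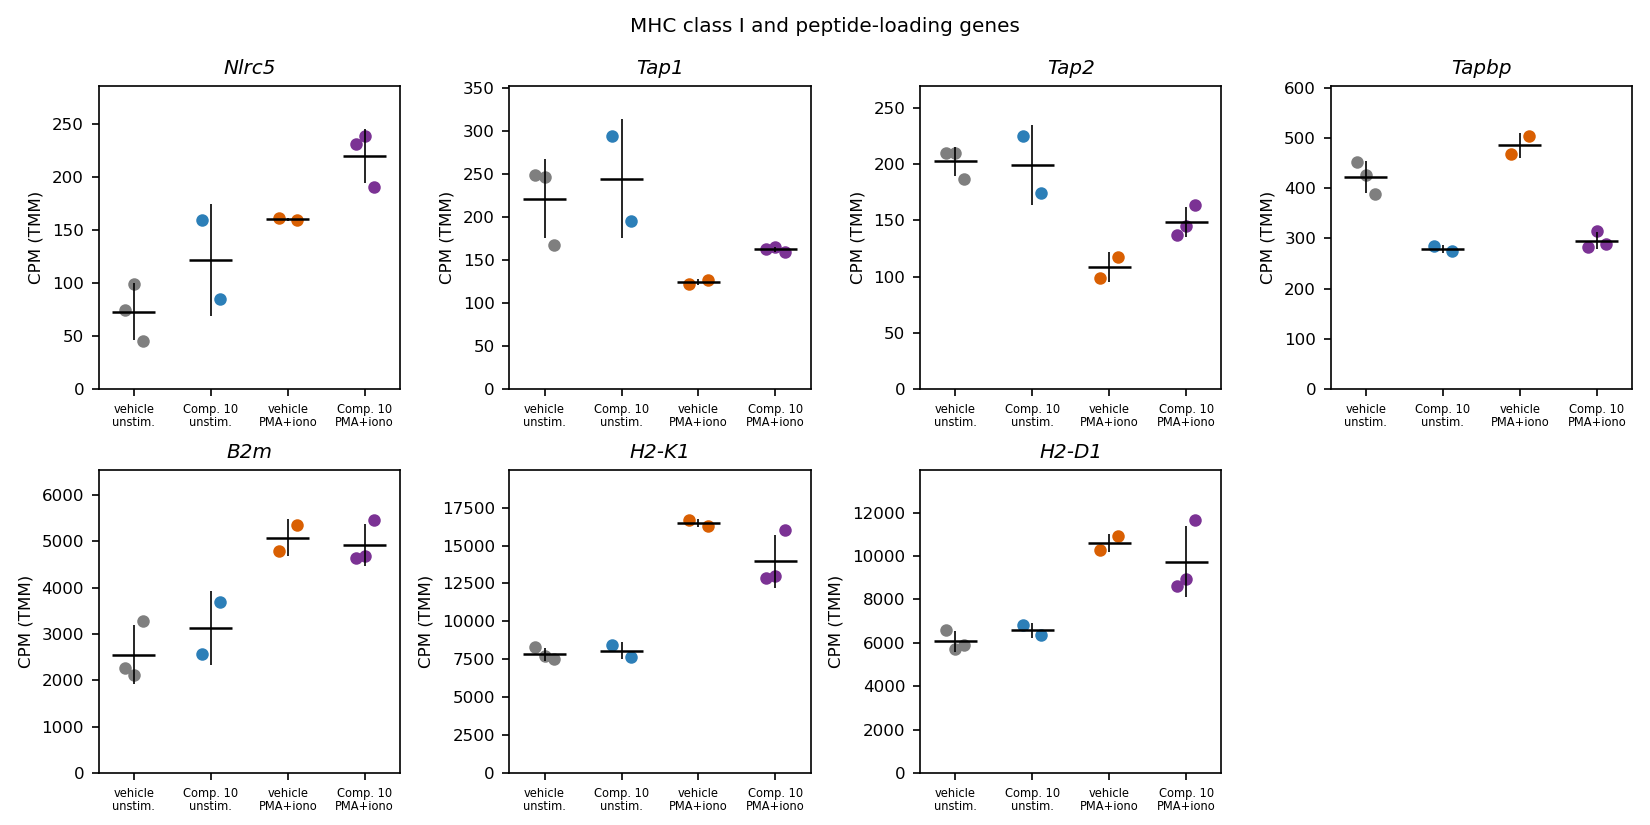
Points are the CPM (TMM-scaled, linear axis from 0) of each library for the 7 MHC class I and peptide-loading genes in the 4 groups; the horizontal bar is the mean and the vertical line its SD. H2-K1 lies between 7496 and 8463 CPM in the 5 unstimulated libraries and between 12880 and 16650 in the 5 stimulated ones, and Tapbp lies between 274 and 315 CPM in the 5 Compound 10 libraries and between 388 and 503 in the 5 vehicle libraries.

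With Compound 10 present, PMA and ionomycin raised 8 of the 38 genes (21.1%, against 12.8% of all genes tested) and lowered 5 (13.2%, against 13.7%), with a median log2 fold change of 0.03 against -0.01. The stimulated and unstimulated Compound 10 libraries used here are other libraries than those of the vehicle comparison. Called in both were 10 genes, which are 66.7% of the 15 called under vehicle and 76.9% of the 13 called with the compound, and each of the 10 had the same sign: Stat2, Oasl2, Dtx3l and Igtp were lower, and Isg15, Isg20, Gbp3, B2m, H2-K1 and H2-D1 were higher. The matching overlap over all genes tested was not computed, so it is not read as a trait of the listed genes. Called only with the compound were Irf7, Irgm1 and Trim25. A call in one comparison and not the other does not show a difference, which the interaction below tests.

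The class I chains rose again with TMM scaling, while by library totals alone, which moved the median gene to -0.60, H2-D1 was at -0.02 and H2-K1 (0.20) and B2m (0.07) were not called. H2-K1 went from 8463 and 7676 CPM in unstimulated to 12880, 12980 and 15990 CPM in stimulated Compound 10 libraries (0.79 ± 0.14, adjusted p = 0.00207, edgeR). H2-D1 went from 6805 and 6339 to 8642, 8944 and 11640 CPM (0.57 ± 0.16, adjusted p = 0.0206, edgeR), and B2m from 2561 and 3690 to 4642, 4690 and 5454 CPM (0.66 ± 0.22, adjusted p = 0.0426, edgeR). No gene of the 3 overlapped between the groups. Adjusted p was 0.270 for B2m without unstimulated Compound 10 replicate 1 and 0.0632 to 0.111 for it without any of the 5 stimulated libraries, vehicle or Compound 10. For H2-D1 it was 0.0565 and 0.153 without unstimulated Compound 10 replicate 1 and 2, and 0.0568 without stimulated Compound 10 replicate 3. In a fit on the compared groups alone the adjusted p of H2-D1 was 0.0502 (edgeR). Tap1 (196 and 294 against 159 to 165 CPM, -0.59 ± 0.20) and Tap2 (174 and 225 against 137 to 164 CPM, -0.42 ± 0.16) lay lower without passing (adjusted p = 0.0515 and 0.0737, edgeR). Nlrc5 (84.5 and 159 against 191 to 238 CPM, 0.86 ± 0.32) and Tapbp (274 and 285 against 283 to 315 CPM, 0.08 ± 0.13) were not called either.

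Isg15 rose from 5.88 and 8.56 to 27.2, 20.2 and 26.4 CPM (1.76 ± 0.27, adjusted p = 0.000813, edgeR). Isg20 went from 3.13 and 4.19 to 9.06, 8.31 and 10.3 CPM (1.32 ± 0.31, adjusted p = 0.00810, edgeR), with an adjusted p of 0.0578 without unstimulated Compound 10 replicate 1. Both sets of stimulated libraries lay above the unstimulated ones. Gbp3 rose from 14.4 and 9.19 to 25.8, 26.9 and 22.6 CPM (1.10 ± 0.21, adjusted p = 0.00298, edgeR). Irgm1, a regulatory GTPase of the response to intracellular bacteria, rose from 36.1 and 30.1 to 83.1, 65.2 and 68.7 CPM (1.13 ± 0.17, adjusted p = 0.000690, edgeR). Irf7 rose from 51.9 and 40.4 to 62.9, 69.2 and 85.1 CPM (0.65 ± 0.18, adjusted p = 0.0190, edgeR). The Irf7 call was lost without unstimulated Compound 10 replicate 2 (0.216) or stimulated Compound 10 replicate 3 (0.0548). By library totals alone Irf7 was at 0.06 (adjusted p = 0.822), Isg20 at 0.73 (0.0841) and Gbp3 at 0.51 (0.0974).

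Igtp fell from 216 and 219 to 112, 109 and 112 CPM (-0.97 ± 0.14, adjusted p = 0.000402, edgeR), beside 106 and 122 CPM in stimulated vehicle libraries. Dtx3l fell from 49.8 and 38.7 to 23.3, 24.2 and 18.8 CPM (-1.002 ± 0.23, adjusted p = 0.00712, edgeR; 0.0560 without unstimulated Compound 10 replicate 1). Stat2 fell from 189 and 152 to 121, 106 and 93.3 CPM (-0.67 ± 0.20, adjusted p = 0.0308, edgeR). These groups did not overlap, but all 3 stimulated Compound 10 libraries of Stat2 lay within the range of the unstimulated vehicle libraries or above it. Trim25, a ubiquitin ligase that activates the RNA sensor RIG-I, fell from 140 and 86.1 to 65.5, 54.0 and 53.6 CPM (-0.97 ± 0.26, adjusted p = 0.0186, edgeR). Oasl2 fell from 13.5 and 11.3 to 7.30, 6.34 and 3.27 CPM (-1.14 ± 0.39, adjusted p = 0.0493, edgeR). Adjusted p was 0.178, 0.0806 and 0.0930 for Stat2 without unstimulated Compound 10 replicate 1 or stimulated Compound 10 replicate 2 or 3, and 0.185, 0.0641 and 0.0573 for Trim25 without the same libraries. For Oasl2 it was 0.0528 to 0.159 without any library except unstimulated vehicle replicates 2 and 3. With upper-quartile scaling adjusted p was 0.0527 for Stat2 and 0.0694 for Oasl2 (edgeR).

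**Figure D3:**
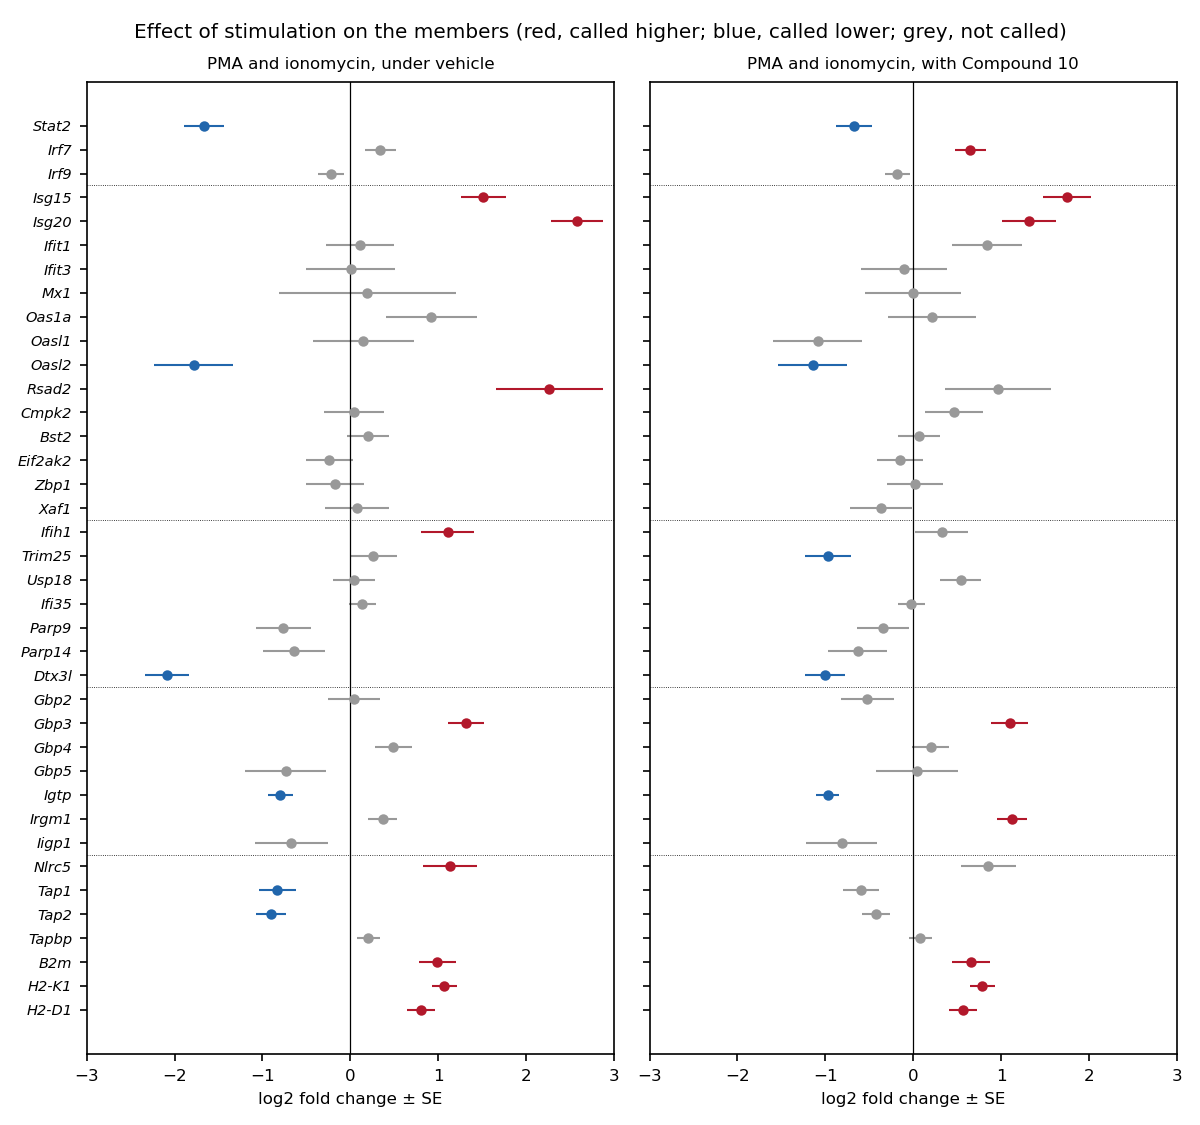
Points are log2 fold changes of stimulated against unstimulated cells for the 38 genes, with SE as horizontal lines, under vehicle (left) and with Compound 10 (right); red genes were called higher, blue lower and grey not called. The ranges run from -2.08 (Dtx3l) to 2.58 (Isg20) under vehicle and from -1.14 (Oasl2) to 1.76 (Isg15) with Compound 10.

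The next question was what the compound changed in cells of the same state. Of the 38 genes, Compound 10 raised 5 (13.2%, against 10.4% of all genes tested) and lowered 2 (5.26%, against 12.8%) in stimulated cells, with a median of 0.18 against 0.04. In unstimulated cells it raised 5 (13.2%, against 4.65%) and lowered 1 (2.63%, against 3.78%), with a median of 0.21 against 0.00. The 2 states use different libraries. Called in both were Stat2, Usp18, Gbp4 and Tapbp (57.1% of the 7 called in stimulated and 66.7% of the 6 called in unstimulated cells), each with the same sign. The overlap of the 2 states over all genes tested was not computed either. Each of these comparisons shares its libraries with a stimulation comparison above, so the values are set side by side and no relation between them is drawn.

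Stat2 was the largest rise with Compound 10 in stimulated cells. It had 34.9 and 28.9 CPM in stimulated vehicle and 121, 106 and 93.3 CPM in stimulated Compound 10 libraries (3.36-fold, log2 fold change 1.75 ± 0.22, adjusted p = 0.000315, edgeR). In unstimulated cells it had 118, 109 and 76.3 against 189 and 152 CPM (0.75 ± 0.20, adjusted p = 0.0439, edgeR). In both states each Compound 10 library was above every vehicle library. The call in unstimulated cells was lost without any 1 of 9 libraries, all but stimulated Compound 10 replicate 3 (adjusted p = 0.0522 to 0.202, edgeR). It was also lost by library totals alone (0.0727), with RLE scaling (0.0527) and in a fit on the compared groups alone (0.125). The call in stimulated cells was kept in every alternative run. Irf7 had 40.4 and 51.9 CPM in unstimulated Compound 10 libraries, under the vehicle libraries (-0.58 ± 0.18, adjusted p = 0.0692, edgeR), and in stimulated cells its groups overlapped (-0.27 ± 0.18). Irf9 differed by -0.08 ± 0.15 and -0.04 ± 0.15.

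Usp18 removes Isg15 from proteins and restrains the type I interferon receptor. It had 11.5 and 16.01 CPM in stimulated vehicle and 49.9, 31.5 and 49.2 CPM in stimulated Compound 10 libraries (3.15-fold, 1.66 ± 0.25, adjusted p = 0.000815, edgeR), and 12.7, 12.4 and 14.9 against 28.1 and 31.5 CPM in unstimulated ones (1.16 ± 0.23, adjusted p = 0.0132, edgeR). All 5 Compound 10 libraries lay between 28.1 and 49.9 CPM and all 5 vehicle libraries between 11.5 and 16.01. Without unstimulated Compound 10 replicate 2 the unstimulated call had an adjusted p of 0.0829, and in a fit on the compared groups alone 0.0537 (edgeR). Trim25 had 140 and 86.1 CPM in unstimulated Compound 10 libraries, against 47.8, 64.0 and 35.0 CPM with vehicle (1.21 ± 0.26, adjusted p = 0.0198, edgeR; 0.0572 without unstimulated vehicle replicate 1 and 0.132 without unstimulated Compound 10 replicate 1). In a fit on the compared groups alone its adjusted p was 0.0921 (edgeR). In stimulated cells its groups overlapped (51.4 and 65.7 against 53.6 to 65.5 CPM, -0.02 ± 0.27).

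Gbp4 is a guanylate-binding protein whose annotated span overlaps Gbp8 and Gbp9, so its share of their reads is uncertain. It had 84.6 and 123 CPM in stimulated vehicle and 202, 238 and 201 CPM in stimulated Compound 10 libraries (1.04 ± 0.22, adjusted p = 0.00559, edgeR). In unstimulated cells it had 64.9, 91.8 and 65.5 against 208 and 165 CPM (1.33 ± 0.21, adjusted p = 0.00513, edgeR). Neither pair of groups overlapped, and the stimulated call was lost without stimulated vehicle replicate 1 (adjusted p = 0.0902). Gbp2 moved the other way in stimulated cells, from 34.6 and 48.2 to 16.9, 22.5 and 13.2 CPM (-1.24 ± 0.30, adjusted p = 0.0114, edgeR; 0.131 without stimulated vehicle replicate 2). In unstimulated cells Gbp2 overlapped (30.7 to 49.1 against 18.6 and 32.1 CPM, -0.68 ± 0.30). The other GTPases were not called in either state: Gbp3 (-0.47 ± 0.20 stimulated, -0.25 ± 0.21 unstimulated), Gbp5 (-0.43 ± 0.48, -1.21 ± 0.45), Igtp (-0.04 ± 0.14, 0.14 ± 0.14), Irgm1 (0.44 ± 0.17, -0.32 ± 0.17) and Iigp1 (-0.40 ± 0.42, -0.27 ± 0.40).

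Tapbp was lower with Compound 10 in both states. It had 468 and 503 CPM in stimulated vehicle and 283, 315 and 289 CPM in stimulated Compound 10 libraries (1.64-fold lower, -0.72 ± 0.13, adjusted p = 0.00256, edgeR), and 452, 426 and 388 against 285 and 274 CPM in unstimulated ones (-0.59 ± 0.14, adjusted p = 0.0239, edgeR). The unstimulated call was lost without unstimulated vehicle replicate 1 or 2 or either unstimulated Compound 10 library (adjusted p = 0.0641 to 0.158). It was also lost in a fit on the compared groups alone (adjusted p = 0.113, edgeR). The other 6 genes of class I and peptide loading were not called for the compound in either state. In stimulated cells their log2 fold changes were 0.46 ± 0.31 for Nlrc5, 0.39 ± 0.21 for Tap1, 0.46 ± 0.16 for Tap2, -0.04 ± 0.21 for B2m, -0.24 ± 0.14 for H2-K1 and -0.12 ± 0.16 for H2-D1. Every stimulated Compound 10 library was above every stimulated vehicle library for Nlrc5, Tap1 and Tap2, and below for H2-K1.

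Of the antiviral effectors, Cmpk2, a mitochondrial nucleotide kinase encoded beside Rsad2, had 3.09 and 7.27 CPM in stimulated vehicle and 13.2, 12.7 and 16.3 CPM in stimulated Compound 10 libraries (1.41 ± 0.35, adjusted p = 0.0129, edgeR). In unstimulated cells it had 6.35, 4.89 and 4.16 against 9.52 and 10.8 CPM (0.99 ± 0.32, adjusted p = 0.0836, edgeR). Each Compound 10 library was above the vehicle libraries of its state, and without stimulated vehicle replicate 1 the stimulated call had an adjusted p of 0.121. Oasl2 had 2.32 and 1.90 against 7.30, 6.34 and 3.27 CPM in stimulated cells (1.42 ± 0.46, adjusted p = 0.0428, edgeR), a call lost without unstimulated vehicle replicate 1, either stimulated vehicle library or stimulated Compound 10 replicate 1 or 2 (adjusted p = 0.0577 to 0.227). By limma-voom Oasl2 was at 1.33 and was not called (adjusted p = 0.174). Oasl1, a related protein that restrains Irf7 translation, had 1.21, 1.63 and 0.602 against 3.13 and 5.498 CPM in unstimulated cells (1.94 ± 0.51, adjusted p = 0.0395, edgeR). It rests on 21 to 219 counts per library. Its call was lost without any 1 of 8 libraries, all but stimulated Compound 10 replicates 1 and 3 (adjusted p = 0.0521 to 0.257, edgeR). It was also lost by library totals alone (0.0531) and in a fit on the compared groups alone (0.0968). A block on the runs of index numbers in the file names lost it too (0.0552). Isg15 (0.33 ± 0.26 stimulated, 0.09 ± 0.26 unstimulated), Isg20 (-0.22 ± 0.29, 1.04 ± 0.30) and Rsad2 (0.34 ± 0.60, 1.64 ± 0.60) were not called. Rsad2 had 4.98 CPM in one unstimulated Compound 10 library and 0.803 in the other. Of the 14 antiviral effectors, 12 had a log2 fold change above 0 in stimulated and 13 in unstimulated cells, most of them without passing the test, beside 7520 and 7229 of the 14417 genes tested. Of the GTPases 2 of 7 were above 0 in each state, and of the class I and peptide-loading genes 3 of 7 in stimulated and 5 of 7 in unstimulated cells. The sum of the 14 effectors was 80.5 and 99.5 CPM in stimulated vehicle against 117 to 132 in stimulated Compound 10 libraries and 65.95 to 73.5 against 97.2 and 112 in unstimulated ones. In unstimulated libraries the MHC class II sum (40.9 to 85.2 against 103 to 125 CPM) and the B cell sum (25 to 43.5 against 46.95 to 56.9) were also higher with Compound 10. In stimulated libraries the groups overlapped for MHC class II (153 to 253 against 249 to 385 CPM) and for B cells (47.6 to 66.2 against 55.6 to 77.5). The part of such cells in the effector sums was not tested.

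**Figure D4:**
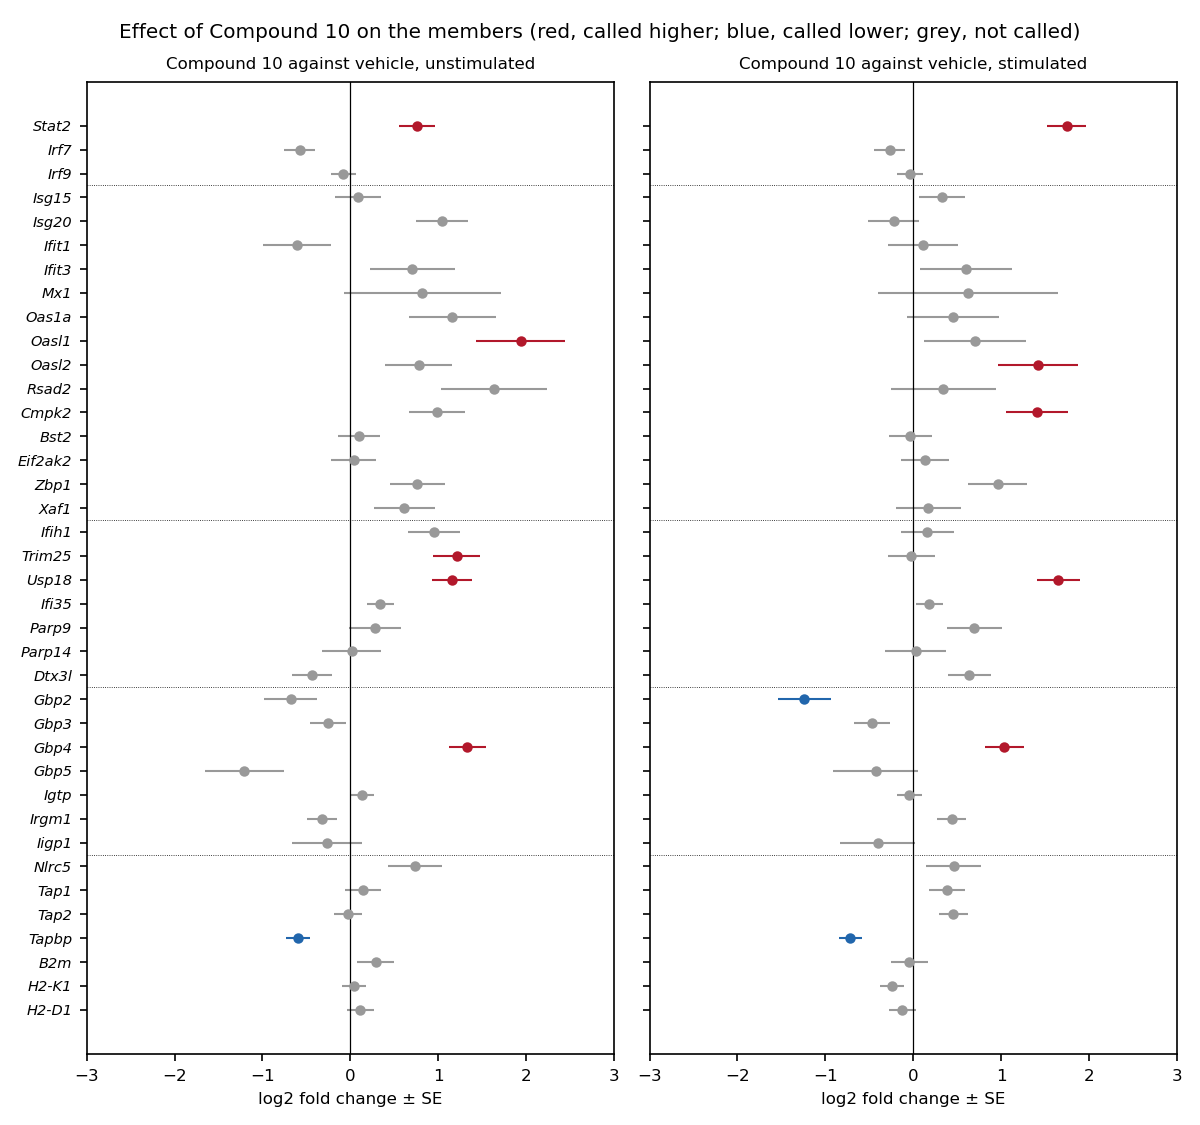
Points are log2 fold changes of Compound 10 against vehicle for the 38 genes, with SE as horizontal lines, in unstimulated (left) and stimulated cells (right); red genes were called higher, blue lower and grey not called. Stat2, Usp18 and Gbp4 are red and Tapbp is blue in both panels, and values range from -1.21 (Gbp5) to 1.94 (Oasl1) in unstimulated and from -1.24 (Gbp2) to 1.75 (Stat2) in stimulated cells.

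**Figure D5:**
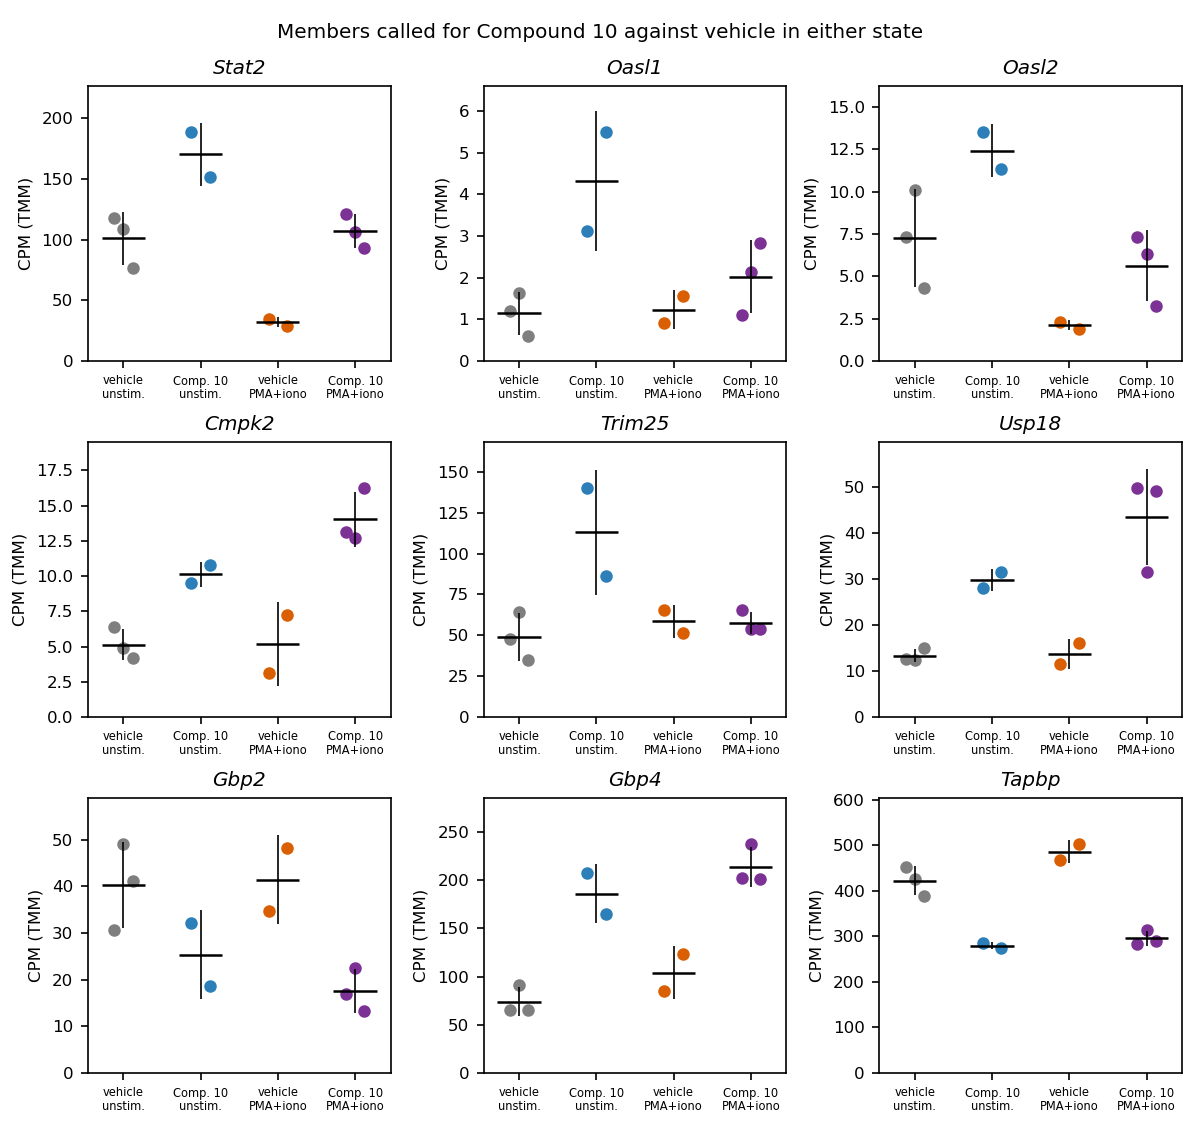
Points are the CPM (TMM-scaled, linear axis from 0) of each library for the 9 genes called for Compound 10 against vehicle in at least 1 state, with the mean as a horizontal bar and its SD as a vertical line. Usp18 separates all 5 Compound 10 libraries (28.1 to 49.9 CPM) from all 5 vehicle libraries (11.5 to 16.01), while Stat2 in stimulated Compound 10 cells (93.3 to 121 CPM) lies at the level of unstimulated vehicle cells (76.3 to 118).

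The interaction asked whether the response to stimulation differed between Compound 10 and vehicle cells. By edgeR's quasi-likelihood test 0 of the 38 genes passed in either direction (against 2.55% of all genes tested with a positive and 4.08% with a negative interaction), and 5 had an unadjusted p under 0.05. By limma-voom 0 passed, and by DESeq2 the same 5 did. Over all genes these tests called 844 and 1692 interactions, against 956 by edgeR's quasi-likelihood test. The blocks used next, on replicate number and on index runs, called 1504 and 2167 of all genes. With the replicate number as a block Stat2 (1.26, adjusted p = 0.00708) and Dtx3l (1.35, 0.0208) passed, and with a block on the runs of index numbers in the file names Stat2 (1.00, 0.00462), Dtx3l (0.0089), Trim25 (0.0202) and Irgm1 (0.034) did. For Stat2 the interaction was 0.99 ± 0.30 (adjusted p = 0.0725, edgeR; 0.0248, DESeq2), the log2 fall with stimulation being -1.67 with vehicle and -0.67 with Compound 10. It was 1.08 ± 0.33 for Dtx3l (0.0774; 0.0262), 0.76 ± 0.24 for Irgm1 (0.0797; 0.0270), -1.23 ± 0.38 for Trim25 (0.0760; 0.0199) and -1.26 ± 0.42 for Isg20 (0.0968; 0.0436). For the class I chains it was -0.28 ± 0.20 (H2-K1), -0.24 ± 0.22 (H2-D1) and -0.34 ± 0.30 (B2m), and for Tapbp -0.12 ± 0.19. None of these tests shows that the other responses were alike.

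In none of the 5 comparisons were 14 genes called: Irf9, Ifit1, Ifit3, Mx1, Oas1a, Bst2, Eif2ak2, Zbp1, Xaf1, Ifi35, Parp9, Parp14, Gbp5 and Iigp1. The share of all genes tested that were called in none was not computed. The 14 include some classical effectors of type I interferon. These are the translation inhibitors Ifit1 and Ifit3, the GTPase Mx1, the RNase L activator Oas1a and the kinase PKR (Eif2ak2). Other antiviral effectors, Isg15, Isg20, Oasl1, Oasl2, Rsad2 and Cmpk2, were called in at least 1 comparison. Mx1 had 0.1004 to 1.47 CPM, 4 to 23 counts per library, so a change in it was hardly measurable at this depth (SE 0.54 to 1.37). Ifit1 had 1.91 to 6.08 CPM, Ifit3 1.49 to 4.63, Oas1a 0.932 to 5.66 and Eif2ak2 4.59 to 7.03. Bst2, the virus tether tetherin, had 8.06 to 12.7 CPM with log2 values between -0.13 and 0.20 over the 5 comparisons. Among the better measured ones, Ifi35 had 74.5 to 115 CPM, and Zbp1, a sensor of Z-form nucleic acids, had 10.4 and 18 against 21.2 to 32.9 CPM in stimulated vehicle and Compound 10 libraries without passing (0.96 ± 0.34, adjusted p = 0.0601, edgeR). Xaf1, which promotes cell death, had 4.75 to 11.6 CPM, the ADP-ribosyltransferase gene Parp14 14.9 to 50.3, Gbp5 0.929 to 3.68 and Iigp1 2.06 to 7.503. Ifit1, Ifit3 and Oas1a have near-identical copies and held 37.7%, 85.3% and 34.4% of the counts of their families.

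Upstream of these genes, the 20 genes of type I and III interferons together had 2 to 15 counts per library, and Ifnb1 had 1 count in 1 library and 0 in the other 9. Ifng, the gene of interferon gamma, had 0 to 6 counts in unstimulated, 28 and 56 in stimulated vehicle and 89 to 140 in stimulated Compound 10 libraries. Of 18 tested genes of interferons, their receptors and proximal signalling, 9 rose (50%, against 19.5% of all genes tested) and 5 fell (27.8%, against 19.4%) with stimulation of vehicle cells. The smallest p-values were those of Socs1, an inhibitor of JAK kinases (32.9 to 46.1 against 689 and 716 CPM, 4.15 ± 0.22), Jak2 (32.7 to 38.3 against 256 and 265 CPM, 2.84 ± 0.18) and the transcription factor Irf8 (8.98 to 12.8 against 71.5 and 72.7 CPM, 2.66 ± 0.20). With Compound 10, 4 of the 18 were higher (22.2%, against 10.4%) and 3 lower (16.7%, against 12.8%) in stimulated cells, and 5 higher (27.8%, against 4.65%) and 0 lower (against 3.78%) in unstimulated cells. In stimulated cells Jak2 was lower (-1.68 ± 0.17), and the chains of the interferon gamma receptor were higher, Ifngr1 from 74.2 and 74.7 to 166 to 203 CPM (1.32 ± 0.15) and Ifngr2 from 38.7 and 41.3 to 89.8 to 114 CPM (1.35 ± 0.16). In unstimulated cells Ifngr1 (245 to 287 against 659 and 676 CPM, 1.30 ± 0.14) and Ifngr2 (0.88 ± 0.15) were higher too, as was Socs3, another inhibitor of cytokine signalling (2.17 ± 0.26). Their adjusted p-values by edgeR were at most 0.00691.

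Of 48 other interferon-stimulated genes, 6 rose (12.5%, against 19.5% of all genes tested) and 14 fell (29.2%, against 19.4%) with stimulation of vehicle cells, with a median of -0.31 against -0.06. With Compound 10, 7 were higher (14.6%, against 10.4%) and 1 lower (2.08%, against 12.8%) in stimulated cells (median 0.18 against 0.04). In unstimulated cells 5 were higher (10.4%, against 4.65%) and 5 lower (10.4%, against 3.78%), with a median of 0.16 against 0.00. In stimulated cells those with the smallest p were Epsti1 (5.28 and 5.97 against 23.97 to 30.6 CPM, 2.26 ± 0.25), the PD-L1 gene Cd274 (76.5 and 88.5 against 232 to 268 CPM, 1.62 ± 0.20) and Ifi213 (1.30 ± 0.24). Of 11 other interferon-inducible GTPases 0 rose and 4 fell (36.4%, against 19.4%) with stimulation of vehicle cells, with a median of -0.64, and 3 were higher (27.3%, against 10.4%) and 1 lower (9.09%, against 12.8%) with Compound 10 in stimulated cells, with a median of 0.95. In stimulated cells Ifi47 fell by 0.93 on the log2 scale with Compound 10, while Gbp9 (1.07 ± 0.23) and Irgm2 (0.96 ± 0.21) were among those higher. Of 22 other genes of class I and peptide processing, 8 rose (36.4%, against 19.5%) and 4 fell (18.2%, against 19.4%) with stimulation of vehicle cells, with a median of 0.30. The smallest p-values there were those of the chaperone Calr (1.73 ± 0.16), the proteasome activator Psme1 (1.27 ± 0.14) and the class I gene H2-Q4 (1.35 ± 0.18). With Compound 10 in stimulated cells 4 of the 22 were higher (18.2%, against 10.4%) and 1 lower (4.55%, against 12.8%), with a median of 0.05, among them the immunoproteasome subunit Psmb9 (20.99 and 29.5 against 59.8 to 72.8 CPM, 1.37 ± 0.19), the tapasin relative Tapbpl (1.15 ± 0.21) and the class I and II promoter factor Rfx5 (1.85 ± 0.42). In unstimulated cells 3 of the 22 were higher (13.6%, against 4.65%) and 0 lower (against 3.78%), with a median of 0.26. The genes of these lists were chosen with earlier results of these libraries known, so their counts are descriptions.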

How the data were processed

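RNA was measured in 10 libraries of sorted splenic naive CD4 T cells, made with Clontech SMART-seq chemistry (unstranded), per the labels' protocols. Tools named in the submitters' processing notes are kallisto and cutadapt, with build mm10. Their versions, and which transcript set was indexed, are not stated. The authors deposited estimated counts per transcript with kallisto's TPM values, lengths and effective lengths, per the file headers. Transcripts were matched by Ensembl identifier to GENCODE M21 (108214 of 109617 matched; the rest held 0.507% to 0.671% of counts and were left out), summed per gene and rounded. Counts of near-identical genes are uncertain, since ambiguous reads are split by estimation.

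All 10 libraries entered 1 fit in R 4.3.3 (edgeR 4.0.16; limma 3.58.1 for alternatives), with a coefficient per group, the filterByExpr filter by group (minimum count 10) and TMM factors (0.731 to 0.850 in stimulated, 1.20 to 1.34 in unstimulated libraries). Each contrast was tested by the quasi-likelihood F test with Benjamini-Hochberg adjustment over 14417 genes and called at adjusted p under 0.05. The fit was tested on simulated counts. Alternatives were RLE, upper-quartile or no scaling, other filters, DESeq2 1.42.0, limma-voom, a fit on the compared groups alone, summed gene copies, blocks, and leaving out each library in turn. The lowest chi-square per degree of freedom between libraries of a group was 13.7, so their counts differed by more than counting noise. This cannot tell whether libraries share RNA, an animal or a culture. All 38 genes are named; those called have values in each library of the groups of that comparison, and up to 3 genes of each context list with the smallest p are named. The members, lists and rules were chosen with earlier results of these data known. Of the listed context genes, Rigi and H2-L were not matched by symbol. Promoters came from RefSeq (GRCm38.p6) for 29 of the 38 genes, and Gbp4, Iigp1, Usp18, Mx1, Nlrc5, Parp14, Tap2, Zbp1 and Parp9 were not matched.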

Additional observations from a re-analysis of the deposited data

How the results depend on the processing

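In all, 41 calls of the 38 genes were made in the 5 comparisons, and 13 were kept under every alternative: Stat2, Dtx3l, Igtp, Isg15, Isg20 and Tap2 for stimulation under vehicle, Igtp, Isg15 and Irgm1 for stimulation with Compound 10, Stat2, Usp18 and Tapbp for Compound 10 in stimulated cells and Gbp4 in unstimulated cells. Of 859 comparisons of a call with an alternative, 767 kept it, 91 lost it and 1 turned its sign, and of 149 results that were not called 48 were called under some alternative. Of 3941 comparisons of any gene with an alternative, 206 (in 77 results) had the other sign, all but 1 of them in results that were not called. Those that were then called with the other sign, and the 1 call that turned (H2-D1), did so with no scaling beyond library totals: -0.72 for Usp18, -0.64 for Ifi35 and -0.57 for Tapbp with stimulation under vehicle, and -0.51 for Tapbp and -0.023 for H2-D1 with Compound 10. That scaling moved the median of all genes to -0.83 under vehicle and -0.60 with Compound 10, and the split of the 38 genes to 2 higher and 16 lower in both stimulation comparisons. Of all 14417 genes tested, it called 1202 higher and 6610 lower under vehicle, and 810 higher and 5219 lower with Compound 10. For Compound 10 in stimulated cells the median of all genes was 0.15 with that scaling and 0.18 with upper-quartile scaling.

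Counts of called genes out of 38 moved as follows. For stimulation with Compound 10, leaving out a library gave 7 to 15. For Compound 10 in stimulated cells there were 11 with upper-quartile scaling, 14 with only the groups compared, 14 with a block on the runs of index numbers in the file names and 4 to 9 without a library (4 without stimulated vehicle replicate 1). For Compound 10 in unstimulated cells there were 11 with no filter, 10 by DESeq2, 11 by limma-voom, 1 with only the groups compared (Gbp4), 11 with the index-run block and 2 to 6 without a library (2 without unstimulated vehicle replicate 1 or Compound 10 replicate 1, 3 without Compound 10 replicate 2). For the interaction there were 2 with no scaling, 3 with no filter, 5 by DESeq2, 2 with the replicate block, 4 with the index-run block and 0 to 2 without a library. The number of all genes called moved in these runs too. For stimulation with Compound 10 it was 2347 to 4370 without a library, from 3816. For Compound 10 in stimulated cells it went from 3350 to 3618 (upper-quartile), 4431 (only the groups compared) and 4595 (index-run block). In unstimulated cells it went from 1215 to 1800 (no filter), 1900 (DESeq2) and 1828 (limma-voom). For the interaction it went from 956 to 841 (no scaling), 1448 (no filter) and 1692 (DESeq2). The cause was not tested. For the 38 genes, the other alternatives stayed within 1.5 times of the counts in the main fit. With the replicate number as a block (replicate block), 17, 14, 9, 7 and 2 of the 38 genes were called. Over all genes tested the same block called 5964, 4469, 3970, 1631 and 1504, against 5617, 3816, 3350, 1215 and 956 in the main fit. The order is vehicle stimulation, Compound 10 stimulation, Compound 10 in stimulated and unstimulated cells and interaction. Same-numbered libraries deviated together in 7 of 13 pairs (r over 0.1, range -0.39 to 0.49), and 6 of 10 libraries correlated best with their own number. In groups of 2 libraries the deviations from the mean mirror each other, so these r values cannot decide on pairing. The labels do not say that a number marks a shared animal, day or batch, so the numbers were not taken as pairs. Libraries of the same index run had r over 0.1 in 8 of 12 pairs (range -0.10 to 0.62), with the same limit. What a run stands for is not stated, so that block too is an alternative. Within the index runs that held both groups, the called genes had 1 sign in each run (15 of 15, 13 of 13, 7 of 7 and 6 of 6), from the libraries that gave the calls. Each called gene had groups that did not overlap, so no other outcome was possible and this is no further support.

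Over all genes tested, the calls for Compound 10 in unstimulated cells fell from 1215 to 122 with only the groups compared and to 325 without Compound 10 replicate 2, and rose to 2403 with the index-run block; those for Compound 10 in stimulated cells fell from 3350 to 1589 without stimulated vehicle replicate 1. Depth limits Ifit3, Mx1, Oas1a, Oasl1, Rsad2 and Gbp5, which averaged under 50 counts per library.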
